A study of Drosophila melanogaster with 10 samples.

Results

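The genes described here carry out homologous recombination and its meiotic form, among them okr, Brca2, Blm, mus81, mei-W68, narya and mei-218. A list of 10 genes was chosen by name, and the members were the probe sets whose platform gene symbol is one of these 10. Of the 18769 probe sets tested, 7 matched, namely 6 with a gene of their own (okr, Brca2, Blm, mus81, mei-W68 and narya) and 1 shared by mei-218 and mei-217. The other 3 listed genes are not analysed here.

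Homologous recombination repairs a broken chromosome by copying from an intact one. The broken end is trimmed to single-stranded DNA, Brca2 helps to build a protein filament on it, and the Rad54 translocase, encoded by okr in flies, helps that filament to invade the matching DNA. The joined molecules are then taken apart by the Blm helicase or cut by nucleases such as Mus81. In meiosis the breaks are made on purpose, by the Spo11 protein that mei-W68 encodes, and proteins such as Narya and Mei-218 help some of them to become crossovers.

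The samples were 10 Affymetrix Drosophila expression arrays, and the question was how transcripts change when the linker histone H1 is depleted by RNAi. H1 sits on the DNA that enters and leaves the nucleosome. Kc cells, a haemocyte-like line derived from embryos, received dsRNA against H1 (2 arrays) or GFP (2 arrays). The labels put them at 25 °C, with 1 hour of dsRNA on each of days 0, 2 and 4 and RNA on day 6, although the series record mentions 1 treatment only. Salivary glands carried a transgene for RNAi against H1 (3 arrays) or, as the control, against Nautilus (nau, a muscle transcription factor; 3 arrays). Tub-Gal4 drove both transgenes throughout the body, so the RNAi was not limited to the gland. Crosses stood at 18 °C and the knockdown ran at 29 °C, starting in the embryo. The labels give neither an age nor a pooling of the animals. Whether arrays of 1 group stem from different cultures or animals is not stated, and p-values here measure a spread between arrays that may be technical.

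Values are log2 of the deposited intensity, and array medians lay between 4.11 and 4.31 on that scale. The array holds 17 Tag control probe sets, built to match nothing in the fly, as a measure of background, and their 95th percentile of 3.55 is called the Tag level here. The annotation names no probe set for His1, and the loss of H1 itself was not measured. The nau signal averaged 3.47 ± 0.10 in glands labelled H1 RNAi and 5.68 ± 0.29 in glands labelled nau RNAi (SD, n = 3 each). All 3 arrays labelled H1 RNAi lay under the Tag level, so nau was at least 4.38-fold lower there (adjusted p = 1.26e-06), which goes against the label of the control. Exchanged gland labels and signal from the nau construct itself cannot be told apart here, and every gland direction given by label would turn, at the same size and p, if the labels were exchanged. The group means of all 10 measured salivary gland markers lay above the Tag level in both gland groups, and those of all 12 haemocyte markers in both Kc groups, PPO1 and NimC1 narrowly so.

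In Kc cells the meiotic gene narya rose 6.22-fold with H1 RNAi, and the Rad54 gene okr fell by 0.46 on the log2 scale, at an adjusted p just under the threshold. The other 5 probe sets did not pass the test. Of the 7, 1 was called higher and 1 lower (limma, adjusted p under 0.05), against 2.89% higher and 1.21% lower among all probe sets, 4.11% in all. The arrays of the groups did not overlap for 5 of the 7, against 54.9% of all probe sets.

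In glands labelled H1 RNAi okr was 2.06-fold higher than in those labelled nau RNAi, the nuclease gene mus81 was 1.64-fold higher, and the other calls lay close to background. The call count was 4 of 7, 3 higher (okr, mus81 and the probe set of mei-218 and mei-217) and 1 lower (mei-W68). Among all probe sets 40.7% were called, 18.8% higher and 21.9% lower, so the count of 4 lies near that background and is not read as particular to these genes. The arrays did not overlap for 4 of the 7, against 49.0% of all. Leaving aside the shared probe set, 3 of 6 were called. The median log2 difference of the 7 was 0.54 in glands and -0.11 in Kc cells, beside -0.08 and -0.03 over all probe sets. These medians were the values of narya in glands and of mei-W68 in Kc cells, neither called and both of low signal there.

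**Figure D1:**
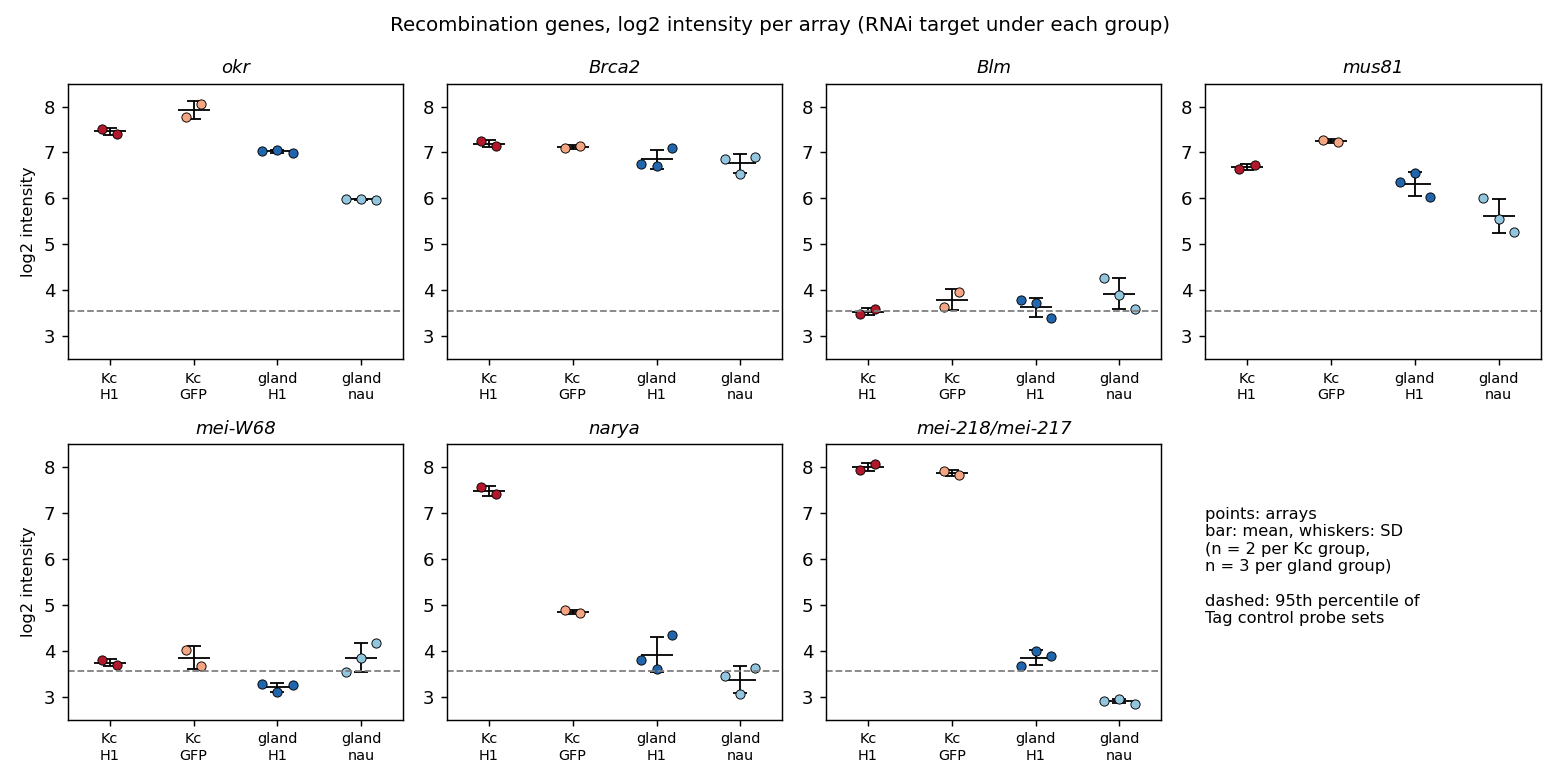
Log2 intensity of each of the 7 probe sets in every array (points), with the mean (bar) and SD (whiskers) of each group, n = 2 in Kc groups and n = 3 in gland groups; the dashed line is the 95th percentile of the Tag controls, 3.55. For narya the Kc arrays with H1 RNAi stand at 7.57 and 7.41, above all other arrays, while okr is lowest in the glands labelled nau RNAi.

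Strand exchange was represented by okr and Brca2. The okr probe set (1628198_at) read 7.51 and 7.41 in Kc cells with H1 RNAi and 7.78 and 8.05 in Kc cells with GFP RNAi. Both H1 arrays lay below both GFP arrays, by a mean of -0.46 on the log2 scale (standard error 0.106, adjusted p = 0.045). This call was lost in 12 of 19 alternatives. Among these was every fit that left out a gland array, although the Kc difference was still -0.46 there. The standard error comes from a spread shared with the glands. The SD of okr was 0.070 and 0.193 in Kc cells with H1 and GFP RNAi. In glands labelled H1 and nau RNAi it was 0.028 and 0.010. The call held with each system fitted alone. It was also lost in the fits without Kc GFP array b (-0.32), Kc H1 array a (-0.51) and Kc H1 array b (-0.41). The 18S rRNA control probe set was also lower in the Kc H1 arrays, at 5.02 to 5.78 against 7.04 to 9.04 in the GFP arrays, and its part in this result was not tested.

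By the gland labels, okr moved the other way in the glands. It read 7.04, 7.05 and 6.99 in glands labelled H1 RNAi and 5.98, 5.99 and 5.97 in glands labelled nau RNAi. The groups were far apart and the arrays of each nearly equal. The log2 difference was 1.05 (standard error 0.0866, 2.06-fold with a 95% interval of 1.80 to 2.36, adjusted p = 9.49e-06), and it was called under all 19 alternatives, with values from 0.77 to 1.06. The gland effect minus the Kc effect was 1.50 (adjusted p = 5.56e-05), so the responses of okr in the cell line and in the gland differed beyond the spread between arrays. With the gland labels exchanged, an alternative chosen after seeing the data, the gland difference of okr would be -1.05, in the direction of the Kc value, and the difference between the effects -0.59 (adjusted p = 0.00976). Its 4 group means ran from 5.98 in glands labelled nau RNAi through 7.03 in glands labelled H1 RNAi and 7.46 in Kc cells with H1 RNAi to 7.92 in Kc cells with GFP RNAi, and no neighbours in this order overlapped.

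Brca2 (1624941_at), which helps to build the filament, was not called in either system. It read 7.25 and 7.14 in Kc cells with H1 RNAi and 7.09 and 7.15 with GFP RNAi, and 6.74, 6.71 and 7.09 in glands labelled H1 RNAi and 6.87, 6.52 and 6.90 in glands labelled nau RNAi. The groups overlapped in both systems. The log2 difference was 0.08 in Kc cells (95% interval -0.29 to 0.44, adjusted p = 0.938) and 0.09 in glands (-0.21 to 0.38, adjusted p = 0.633), intervals that leave out a 2-fold change in either direction.

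Joint molecules were represented by Blm and mus81. The mus81 probe set (1632240_at) read 6.63 and 6.74 in Kc cells with H1 RNAi and 7.28 and 7.22 with GFP RNAi. It read 6.36, 6.56 and 6.04 in glands labelled H1 RNAi and 6.00, 5.55 and 5.27 in glands labelled nau RNAi. The groups did not overlap in either system, and the order ran in opposite directions. In Kc cells the log2 difference of -0.56 did not pass (95% interval -1.07 to -0.06, adjusted p = 0.271), although it did when Kc cells were fitted alone (adjusted p = 0.00616). The SD of mus81 was 0.0728 and 0.0402 in Kc cells with H1 and GFP RNAi, and 0.262 and 0.368 in glands labelled H1 and nau RNAi. The joint fit shares 1 spread over both systems. In glands mus81 rose by 0.71 (standard error 0.184, adjusted p = 0.0118), and the difference between the effects was 1.27 (adjusted p = 0.00982). With quantile normalization over the 10 arrays the gland difference was 0.39 (adjusted p = 0.173) and that between the effects 0.98 (adjusted p = 0.0554), and with normalization within each system the gland difference was 0.35 (adjusted p = 0.178). The gland rise of mus81 is thus a call that rests on the deposited scale.

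Blm (1637039_at) had a signal close to the Tag controls throughout. It read 3.48 and 3.58 in Kc cells with H1 RNAi and 3.63 and 3.95 with GFP RNAi, and 3.78, 3.71 and 3.39 in glands labelled H1 RNAi and 4.27, 3.91 and 3.60 in glands labelled nau RNAi. The Kc groups did not overlap and the gland groups did. Neither the Kc difference (-0.26, 95% interval -0.74 to 0.22, adjusted p = 0.716) nor the gland difference (-0.30, -0.69 to 0.10, adjusted p = 0.206) passed, and a probe set this close to the Tag level has little room to show a fall.

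Of the genes of meiotic breaks and crossovers, narya had the largest change of all 7 probe sets. Its protein carries a RING domain and works with the related proteins Vilya and Nenya at meiotic breaks in the female germline. The narya probe set (1625292_at) read 7.57 and 7.41 in Kc cells with H1 RNAi and 4.89 and 4.82 with GFP RNAi. Both pairs of arrays were tight and well above the Tag level. The log2 rise of 2.64 (standard error 0.24, 6.22-fold with a 95% interval of 4.28 to 9.04, adjusted p = 0.000303) ranked 14 of the 18769 probe sets of that comparison by size. It was called under all 19 alternatives, with values from 2.12 to 2.72.

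In glands narya stayed near background. It read 3.79, 3.62 and 4.35 in glands labelled H1 RNAi and 3.44, 3.06 and 3.63 in glands labelled nau RNAi. The highest nau array lay just above the lowest H1 array, and the difference of 0.54 missed the threshold (95% interval 0.10 to 0.98, adjusted p = 0.0511), a call that 7 of 19 alternatives made. The mean of the nau arrays lay under the Tag level, and with arrays set to that level the gland difference was 0.34. The fitted gland effect minus the Kc effect was -2.09 (adjusted p = 0.000926), or -3.18 (adjusted p = 6.02e-05) with the gland labels exchanged. From low to high the means were 3.38 in glands labelled nau RNAi, 3.92 in glands labelled H1 RNAi, 4.85 in Kc cells with GFP RNAi and 7.49 in Kc cells with H1 RNAi, where the pair of gland groups overlapped and the other neighbours did not.

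The probe set shared by mei-218 and mei-217 (1626387_s_at) cannot tell the genes apart. Both are read from overlapping loci, and with rec their products form a complex related to the replicative MCM helicase that promotes meiotic crossovers. It read 7.94 and 8.07 in Kc cells with H1 RNAi and 7.92 and 7.83 with GFP RNAi, a difference of 0.13 (95% interval -0.13 to 0.40, adjusted p = 0.753). In glands it read 3.67, 3.99 and 3.89 in those labelled H1 RNAi and 2.91, 2.94 and 2.85 in those labelled nau RNAi, and the groups were clearly apart. All 3 arrays labelled nau RNAi were under the Tag level, so the gland rise (fitted difference 0.95, adjusted p = 3.76e-05) is given as at least 1.23-fold, with the control arrays set to the Tag level, and the fitted difference was 0.38 with an offset of 16 added to the intensities. The difference between the effects was 0.82 (adjusted p = 0.00354), or 0.25 (adjusted p = 0.0589) with that offset.

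The probe set of mei-W68 (1634534_at), the Spo11 gene, gave little signal anywhere. It read 3.80 and 3.69 in Kc cells with H1 RNAi and 4.03 and 3.67 with GFP RNAi, which overlapped (difference -0.11, 95% interval -0.54 to 0.32, adjusted p = 0.923). In glands it read 3.27, 3.10 and 3.25 in those labelled H1 RNAi and 3.55, 3.84 and 4.17 in those labelled nau RNAi. All 3 arrays labelled H1 RNAi lay under the Tag level, so the call of a decrease (fitted difference -0.65, adjusted p = 0.0082) stands for a signal at least 1.23-fold lower, and with an offset of 16 the fitted difference was -0.28. The difference between the effects did not pass (-0.54, 95% interval -1.09 to 0.02, adjusted p = 0.151).

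**Figure D2:**
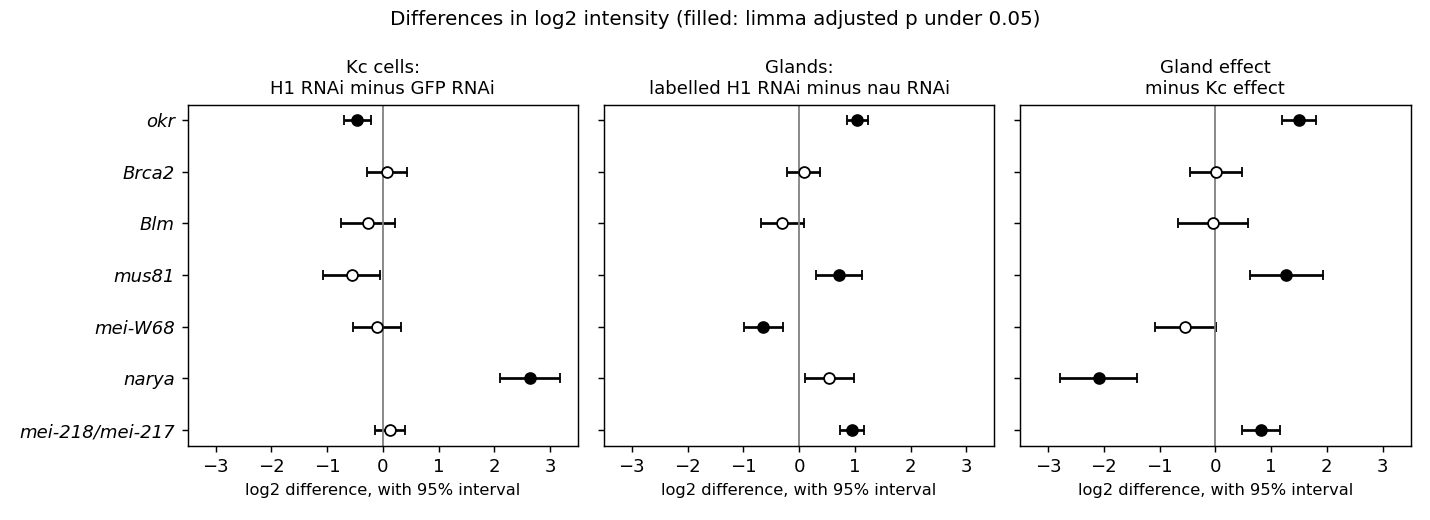
Log2 difference of each probe set with its 95% interval from the limma fit in Kc cells, in glands and between the effects; filled points had an adjusted p under 0.05. The okr point lies at -0.46 in Kc cells and 1.05 in glands, and the narya point at 2.64 and 0.54.

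Over the 7 probe sets the difference between the effects was called for 4, by the labels 3 higher in glands than in Kc cells (okr, mus81 and mei-218/mei-217) and 1 lower (narya). Among all probe sets 25.9% had such a call, 13.3% higher and 12.5% lower. The call of mus81 was lost with quantile normalization over the 10 arrays and that of mei-218/mei-217 with the offset. With the gland labels exchanged 4 were called again, with narya (-3.18), mei-218/mei-217 (-1.08) and okr (-0.59) lower and mei-W68 (0.75) higher, so that narya alone kept its call and direction. By the labels okr was called in opposite directions in the 2 systems, with a Kc call that 12 of 19 alternatives lost, and no probe set was called in the same direction in both.

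The control groups also differed in level. Glands labelled nau RNAi were lower than Kc cells with GFP RNAi for 4 of the 7 probe sets and higher for none, against 29.6% lower and 21.6% higher among all probe sets, 51.2% in all. For mei-218/mei-217 the gland arrays were at the Tag level or under it, and the signal was at least 20.0-fold lower than in the Kc cells. The okr signal was 3.83-fold lower in these glands, mus81 3.11-fold lower and narya at least 2.42-fold lower (fitted difference -1.48, or -0.76 with the offset), all with an adjusted p of at most 0.000233. Brca2 (-0.35, adjusted p = 0.0717), mei-W68 (0.00, adjusted p = 0.996) and Blm (0.14, adjusted p = 0.604) did not pass. Tissue, growth temperature and any separate processing cannot be told apart in this comparison, nor can fewer cells of a type and less RNA per cell. The signal difference between 3′ and 5′ actin control probe sets, a sign of RNA quality, also differed. It was 0.398 to 0.485 in Kc cells with GFP RNAi and 1.80 to 1.98 in glands labelled nau RNAi. The 18S rRNA control read 7.04 to 9.04 and 12.62 to 12.77 in these groups. The part of these differences in the folds was not tested.

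The other genes of the pathway were taken from a list of 53, of which 45 had a probe set of their own. In Kc cells 3 of the 45 had an unadjusted p under 0.05. Such counts are given here and below without a share of all genes. The median log2 difference was -0.0036. By adjusted p 1 of the 45 rose and none fell, against 3.46% and 1.59% of all named genes. The exception was cona, a central element gene of the synaptonemal complex that holds paired meiotic chromosomes. It read 10.65 and 10.70 with H1 RNAi and 10.11 and 9.98 with GFP RNAi (difference 0.63, adjusted p = 0.0195), and its call was lost without any single Kc array. In glands 23 of the 45 rose and 5 fell, against 23.6% of named genes in each direction, with a median of 0.42. The effects differed between the systems for 22 of the 45, 19 higher in glands and 3 lower, against 17.2% and 14.7% of named genes.

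By role, all 10 measured genes listed under end resection and strand exchange rose in glands, against 23.6% of named genes in each direction. Their median log2 difference was 1.86. The nuclease gene mre11 averaged 9.18 ± 0.16 in glands labelled H1 RNAi and 5.33 ± 0.15 in glands labelled nau RNAi (SD, n = 3 each), a rise of 3.86. Its complex partners rad50 (2.99) and nbs (2.15) rose too, as did RPA3 (2.73), RPA1 (2.63) and RPA2 (1.56), which encode the protein that covers single-stranded DNA, and the exonuclease gene tos (1.49). These 7 had an adjusted p of at most 5.57e-06. The list is broader than its name and also holds mus301, PolQ and Marcal1, which rose by 0.60, 0.85 and 0.92. None of the 10 passed in Kc cells, where 3.46% of named genes were called higher and 1.59% lower. Among the 10, 1 had an unadjusted p under 0.05 there.

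Among 15 genes of joint molecules and crosslink repair 9 rose and 2 fell in glands, to be read against the 23.6% of named genes in each direction. Top3alpha, a topoisomerase that works with the Blm helicase, rose by 1.26 while Blm itself was near background. The partner of mus81 in its nuclease, mms4, read 4.36, 4.58 and 4.91 in glands labelled H1 RNAi and 4.40, 4.19 and 4.23 in glands labelled nau RNAi, and its difference of 0.34 did not pass (95% interval 0.05 to 0.63, adjusted p = 0.0623). In Kc cells neither Top3alpha (-0.20, adjusted p = 0.351) nor mms4 (-0.05, adjusted p = 0.967) passed.

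Of 9 genes of meiotic breaks and crossovers 1 rose and 1 fell in glands, no more than the 23.6% of named genes each way, and none passed in Kc cells, where none had an unadjusted p under 0.05. Neither relative of narya passed in Kc cells. The vilya signal was 8.27 and 8.34 in Kc cells with H1 RNAi and 8.48 and 8.28 with GFP RNAi (difference -0.08, 95% interval -0.39 to 0.24, adjusted p = 0.924), and nenya lay under the Tag level in all 10 arrays. The MCM-related gene rec passed neither in Kc cells (0.01, adjusted p = 0.992) nor in glands (0.17, adjusted p = 0.46). The break genes mei-P22 (-0.40, adjusted p = 0.0474) and trem (0.11, adjusted p = 0.481), which act with mei-W68, gave a fall and no call in glands. The mei-P22 signal was close to the Tag level and its groups overlapped. It ran from 3.71 to 4.02 in glands labelled H1 RNAi and from 3.93 to 4.43 in those labelled nau RNAi.

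**Figure D3:**
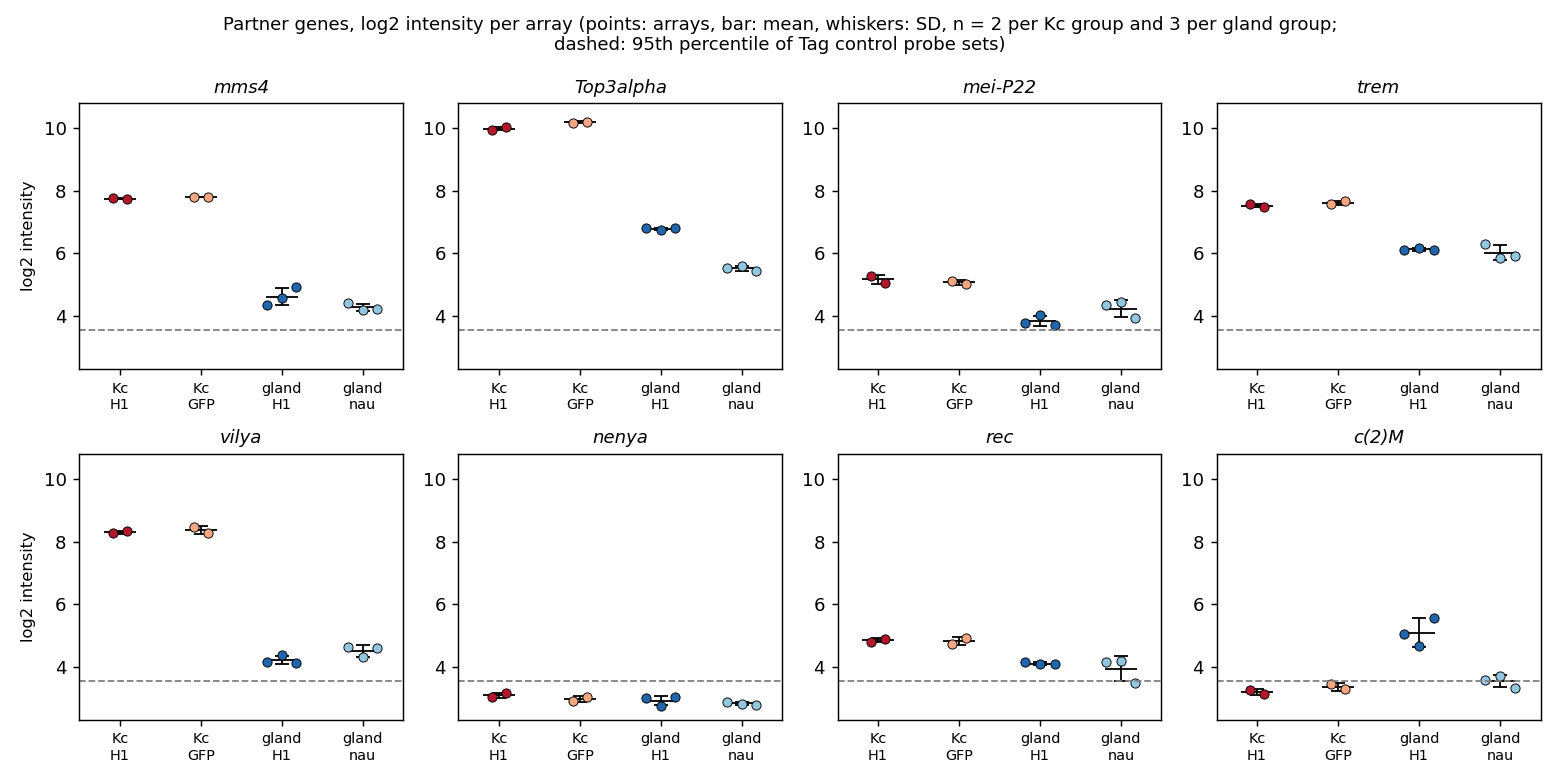
Log2 intensity per array of 8 genes that act with or beside the genes described here, with group means (bar) and SD (whiskers), n = 2 in Kc groups and n = 3 in gland groups; the dashed line is the 95th percentile of the Tag controls. The vilya, nenya and rec arrays with H1 RNAi lie close to their GFP arrays in Kc cells, and Top3alpha and c(2)M lie higher in glands labelled H1 RNAi than in those labelled nau RNAi.

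Of 11 genes of the synaptonemal complex, of sister chromatid cohesion and of chromosome segregation in female meiosis 3 rose and 2 fell in glands, counts near the 23.6% of named genes each way. The lateral element gene c(2)M read 5.03, 4.65 and 5.57 in glands labelled H1 RNAi and 3.58, 3.70 and 3.33 in glands labelled nau RNAi, at least 2.78-fold higher since the mean of the control arrays lay under the Tag level (adjusted p = 0.000199). The synaptonemal complex gene c(3)G (0.95) and the chromokinesin gene nod (1.13) rose as well, and corolla (at least 1.53-fold lower, with the mean of the arrays labelled H1 RNAi under the Tag level) and the cohesin gene SMC1 (-0.54) fell.

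**Figure D4:**
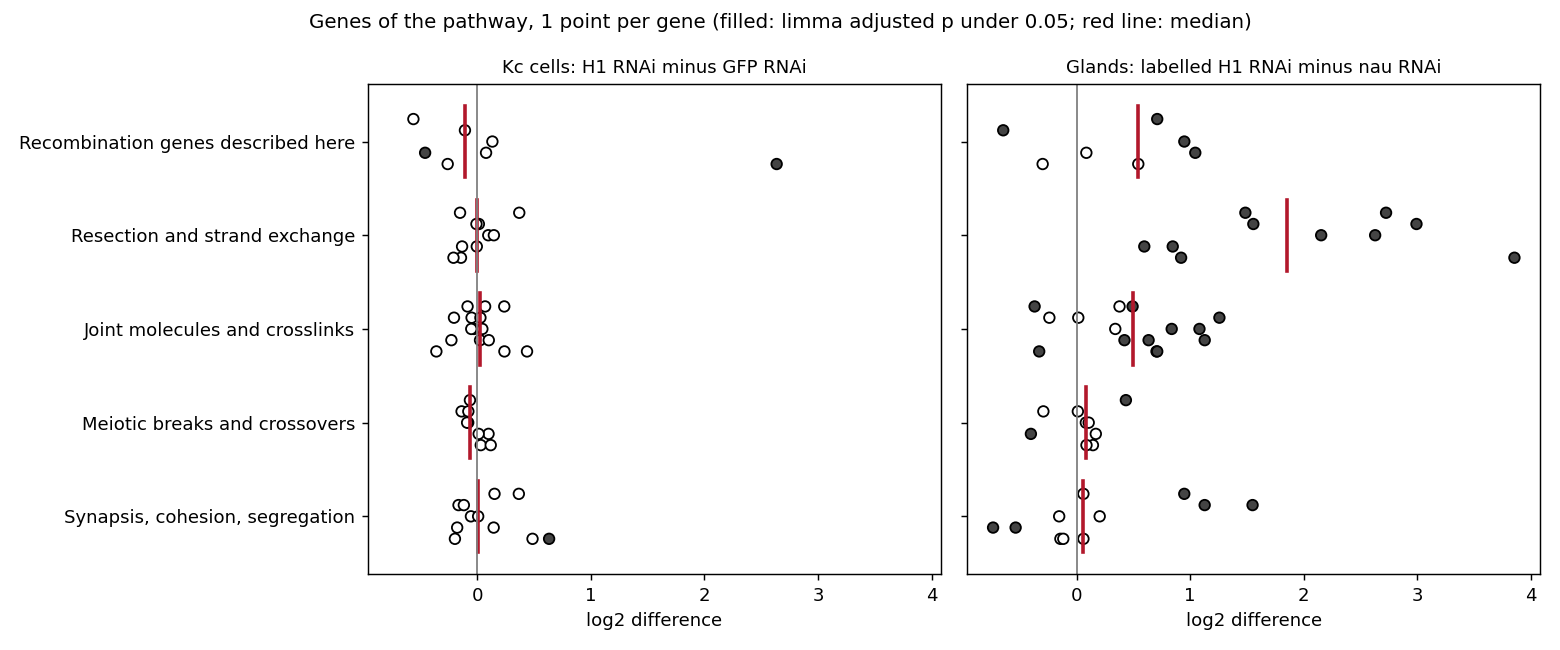
Log2 difference of each gene in Kc cells and in glands, 1 point per gene, in 5 groups by role; filled points had an adjusted p under 0.05 and the red line is the median of the group. In glands the 10 genes listed under resection and strand exchange all lie to the right of 0, with a median of 1.86. In Kc cells narya, at 2.64, lies apart from all others.

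Markers of other cell types and of dividing cells were read in the same arrays. Of 13 germline markers 1 rose and 1 fell in Kc cells, against 3.46% and 1.59% of named genes. Their summed intensity was 3489 to 3530 with H1 RNAi and 3634 to 3760 with GFP RNAi. The means of vas, osk, zpg, otu and ovo lay under the Tag level in both Kc groups, and the marker that rose was piwi (0.70, adjusted p = 0.0195). Other markers of the list were bright in Kc cells. With H1 RNAi and GFP RNAi in turn, aub averaged 10.5 and 10.5, bgcn 9.77 and 9.89, AGO3 9.33 and 9.44, and Sxl 8.25 and 8.46. The mean of gcl was 6.51 with H1 RNAi and 7.11 with GFP RNAi. The part of these markers in the narya result was not tested. In glands 3 germline markers rose and 2 fell, near or under the 23.6% of named genes each way. Their sum was 1151 to 1455 in those labelled H1 RNAi and 1172 to 1526 in those labelled nau RNAi. Large parts of it were Sxl (mean intensity 605 and 640) and gcl (252 and 575). In log2, AGO3 averaged 8.08 in glands labelled H1 RNAi and 4.56 in those labelled nau RNAi. In the same order ovo averaged 5.82 and 4.40 and aub 4.68 and 3.99, whereas gcl averaged 7.98 and 9.16 and bgcn 3.26 and 3.80. Genes of cell division changed in glands with okr: 9 of 13 rose and 1 fell, against the same 23.6% each way, and their sum was 2915 to 3204 in glands labelled H1 RNAi against 1350 to 1805 in those labelled nau RNAi. In Kc cells none of the 13 passed in limma or had an unadjusted p under 0.05. Of the 12 haemocyte markers 2 fell in Kc cells, He (-3.46, adjusted p = 0.000573) and eater (-2.02, adjusted p = 0.00131), and none rose. The signal difference between 3′ and 5′ actin control probe sets, a sign of RNA quality, was 0.259 to 0.281 with H1 RNAi and 0.398 to 0.485 with GFP RNAi. The part of these shifts in the Kc results of narya and okr was not tested.

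Haemocyte markers also rose in glands, 10 of 12, with 1 lower, against 23.6% of named genes each way, and their sum was 23140 to 23923 in glands labelled H1 RNAi against 8641 to 13042 in those labelled nau RNAi. Much of this sum was Nplp2, with a mean intensity of 16219 in glands labelled H1 RNAi and 6580 in those labelled nau RNAi. In log2, Pxn averaged lower in glands labelled H1 RNAi, at 7.06 against 8.21. The means of all 12 haemocyte markers were above the Tag level in both groups. Salivary gland markers fell, 8 of 10, with a sum of 25500 to 28735 against 106532 to 110701. The fat body markers summed to 43177 to 44795 in glands labelled H1 RNAi and 38699 to 41717 in those labelled nau RNAi. The same 3′ and 5′ actin difference was 2.11 to 2.48 in glands labelled H1 RNAi and 1.80 to 1.98 in those labelled nau RNAi, without overlap. Other lists moved in both directions, with 2 of 5 fat body markers higher and 1 lower, 1 of 7 imaginal markers higher and 2 lower, and 3 of 6 neuron markers higher and 1 lower. Muscle markers, with 1 of 4 higher and 1 lower, summed to 152 to 339 in glands labelled H1 RNAi and 841 to 913 in those labelled nau RNAi. Most of the sum in glands labelled nau RNAi was sls, with a mean intensity of 772, against 66 in glands labelled H1 RNAi. The means labelled H1 and nau RNAi were 65 and 27 for Mlc2, 50 and 23 for the gene up, and 51 and 56 for Tm2. The part of these shifts in the gland results of okr, mus81 and their partners was not tested.

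Since okr alone was called in both systems, in Kc cells under 7 of 19 alternatives, the named genes whose log2 values followed it most closely over the 10 arrays were looked up. They were TTLL12 (r = 0.992), grk (r = 0.992) and Wwox (r = 0.989). The 10 arrays form separate Kc and gland sets and these values are a description of likeness only.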

How the data were processed

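The authors deposited linear intensity values, 1 for each probe set of each array, which ran from 4.39 to 20761. Per the submitters' processing notes the tool was RMA, whose version is not given, and whether Kc and gland arrays were processed together is not given in the sources used here. RMA as usually run makes the arrays' distributions alike, so a change of all transcripts at once could be hidden. The deposited values were not fully equal between arrays, with medians from 4.11 to 4.31. A further quantile normalization within each system took the gland difference of mus81 from 0.71 to 0.35.

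The log2 of the deposited intensity was tested after removing 183 Affymetrix controls. In the platform annotation 13647 of the 18769 remaining probe sets have 1 gene symbol, 402 several and 4720 none, and where a gene had several probe sets the brightest on average stood for it. A model of 4 group means over the 10 arrays was fitted in limma 3.58.1 (R 4.3.3, lmFit and eBayes), and p-values were Benjamini-Hochberg adjusted over all 18769, with calls at 0.05. The model shares 1 spread per probe set over both systems. The SD pooled over all probe sets was 0.114 to 0.117 in the Kc groups and 0.238 to 0.263 in the gland groups. The script was tested on simulated data. The number of arrays limits the precision. Folds given as "at least" set arrays under the Tag level to that level.

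Named were the 7 genes with a probe set, nau, up to 8 called partners per comparison, marker genes, and the 3 genes most like any member called in both systems. Partners acting directly with the members, and those that fell, were named after their values were seen. The members and lists were chosen with earlier results of these data known. Alternatives varied the scaling, the spread estimate, the treatment of low signal, the probe set of a gene and a block for the array letter. Others left out each array in turn or, added after seeing the data, exchanged the gland labels. Some of these, such as leaving out an array of the other system, can change only the p of a Kc or gland difference. Searches of promoters and comparisons of proteins were not run, for want of sequence tables.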

Additional observations from a re-analysis of the deposited data

Results flagged for a closer look

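By the test of the difference, the effect of RNAi labelled H1 differed between glands and Kc cells for 4 of the 7 probe sets. Among all probe sets 25.9% were called in that test, 13.3% higher and 12.5% lower. For narya the gland effect minus the Kc effect was -2.09 (adjusted p = 0.000926), for okr 1.50 (adjusted p = 5.56e-05), for mus81 1.27 (adjusted p = 0.00982) and for mei-218/mei-217 0.815 (adjusted p = 0.00354). For okr the arrays moved in opposite directions by their labels, lower in both Kc arrays with H1 RNAi and higher in all 3 gland arrays so labelled. For mei-218/mei-217 the glands labelled nau RNAi were under the Tag level, so the gland change is known only as a bound (0.30 on the log2 scale, beside a Kc difference of 0.13), and the call was lost with an offset of 16 (0.25, adjusted p = 0.0589). The call of mus81 was lost with quantile normalization over the 10 arrays (0.98, adjusted p = 0.0554). With the gland labels exchanged the difference was -3.18 for narya, -0.59 for okr and -1.08 for mei-218/mei-217, each with a call, and -0.15 for mus81 without one.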

How the results depend on the processing

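In Kc cells the narya call held under all 19 alternatives and the okr call under 7, with adjusted p from 0.0156 to 0.36. The count of the 7 probe sets called in Kc cells, 2, was 1 with quantile normalization within each system, with trend and robust, and with the replicate block, 3 with each system fitted alone, and 1 to 2 with an array left out. The count of partner genes called in Kc cells, 1, was 5 with each system fitted alone, 2 with an offset of 16, and 0 to 1 with an array left out. In glands 4 to 5 of the 7 probe sets and 23 to 29 of the 45 partner genes were called under the alternatives run. The gland call of narya was made with both quantile normalizations, trend and robust, the filter on low signal, the replicate block (adjusted p = 0.00629), without nau array c (0.67) and without H1 array b (0.70).

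Apart from exchanged labels, values of opposite sign came from probe sets without a call. Centring gave -0.020 for Brca2 between the effects and -0.094 for mei-W68 between the controls. Quantile normalization over all arrays gave Brca2 -0.15 in glands, -0.18 between the effects and 0.17 between the controls, Blm 0.0059 between the effects and mei-W68 -0.11 between the controls. Within each system it gave Brca2 -0.15 in glands and -0.18 between the effects. With an array left out, mei-W68 ran from -0.28 to 0.068 in Kc cells and from -0.18 to 0.18 between the controls, Brca2 from -0.035 to 0.16 in glands and from -0.11 to 0.077 between the effects, and Blm from -0.20 to 0.13 between the effects and from -0.036 to 0.30 between the controls. The causes were not tested. Exchanging the gland labels, added after seeing the data, gave between the effects -0.59 for okr, -0.15 for mus81, -1.08 for mei-218/mei-217, 0.75 for mei-W68, 0.56 for Blm and -0.16 for Brca2, and turned the sign of every gland difference.

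Array letters did not pair the arrays: same-letter deviations correlated at -0.003 in Kc cells and -0.072, 0.089 and 0.066 in glands. With the letter as a replicate block 447 probe sets were called in Kc cells, against 771 without it, and 7147 in glands, against 7631. With each system fitted alone 2152 were called in Kc cells, and with the offset 1244. Centring moved the median of all probe sets in glands to -0.13. Signal near the Tag level limits Blm, mei-W68 and the gland values of narya and mei-218/mei-217.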
